A study of Mus musculus with 6 samples.

Results

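The genes described here are the 260 protein-coding mouse genes named Zfp and a number, with Zfp36 left out, whose mean level over 6 RNA-seq libraries was at least 1 CPM (a gene's expected count scaled to a common library total). They were chosen by that name and that measured mean level, not by the difference between groups, out of 364 such genes and 52636 genes in all. Below the limit were 104 genes, of which 43 had 0 counts in every library. The members just inside the limit were Zfp14 with a mean of 1.01 CPM, Zfp563 with 1.04 CPM and Zfp759 with 1.07 CPM, and the genes just outside it were Zfp229 with 0.990 CPM, Zfp758 with 0.924 CPM and Zfp551 with 0.903 CPM. A filter on low counts left 257 members for testing, and Zfp14, Zfp40 and Zfp563 were not tested. The libraries came from RAW264.7, a macrophage-like line grown from a virus-induced tumour of a BALB/c mouse. The group C2S was 3 libraries of cells kept for 24 h with an extract of that name at 150 µg/ml, and the group PM_control was 3 libraries of cells without it (0 µg/ml), numbered 1 to 3 in each group. The line is 1 established culture model, the extract's contents are not named in the labels, and nothing in the labels shows the replicates to be independent cultures. The p-values are therefore set against a spread between libraries that may be technical.

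Zfp genes encode proteins with C2H2 zinc fingers, short folds in which a pair of cysteines and a pair of histidines hold a zinc ion. Arrays of such fingers read DNA letters, and many of these proteins bind repeated elements. Many also carry a KRAB box near the start of the protein, which recruits Trim28 (also called Kap1). Trim28 brings in the histone methyltransferase Setdb1 and heterochromatin proteins, and the bound DNA is silenced. Genes of the KRAB type arose by repeated duplication and lie in chromosome clusters. A KRAB box was found in 152 of the 260 members by a profile search of the proteins encoded by their transcripts, and none was found in 108.

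The KRAB box is shown first, for members whose boxes are alike at different degrees and whose fold changes differ in sign. They were chosen after their values were seen. The coding bases of the first part of the box (KRAB A) are given 5′ to 3′, with capitals marking the codons of 5 anchor residues that recur across the family. Zfp811 (gene at chr17:32795676-32809931, minus strand) and Zfp959 (chr17:55892093-55898928, plus strand) rose with C2S. Zfp873 (chr10:82048123-82064745, plus strand), Zfp966 (chr2:175918881-175931100, minus strand) and Zfp971 (chr2:178023284-178034022, plus strand) fell. Positions are from GENCODE M21 on GRCm38. All but Zfp959 had a group mean under 1 CPM, and Zfp966 and Zfp971 hold reads shared with other genes, so their values are less certain.
Zfp811: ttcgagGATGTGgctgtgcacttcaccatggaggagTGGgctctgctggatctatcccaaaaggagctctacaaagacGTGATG
Zfp959: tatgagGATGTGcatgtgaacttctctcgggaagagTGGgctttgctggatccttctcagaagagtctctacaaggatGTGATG
Zfp873: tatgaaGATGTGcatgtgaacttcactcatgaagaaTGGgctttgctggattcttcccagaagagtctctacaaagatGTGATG
Zfp966: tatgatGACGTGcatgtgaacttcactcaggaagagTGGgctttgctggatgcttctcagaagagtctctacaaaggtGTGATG
Zfp971: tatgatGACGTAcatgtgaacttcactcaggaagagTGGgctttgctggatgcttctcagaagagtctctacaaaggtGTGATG
Zfp966 and Zfp971 shared 83 of the 84 bases. Zfp959, which rose, shared 77 of 84 with Zfp966 and 76 of 84 with Zfp971, which both fell. Zfp811 was further away, with 64 of 84 bases shared with Zfp959 (76.2%). Over all 3828 pairs of the 88 members in which a residue pattern also placed the box, identity of these bases ran from 52.4% to 100% with a median of 69.0%.

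With C2S, a larger share of the Zfp members than of all tested genes was lower, and a smaller share was higher. By edgeR's quasi-likelihood test, at an adjusted p of at most 0.05 over all 11561 genes tested, 141 of the 257 tested members (54.9%) were called lower, where 28.4% of all tested genes were. The same test called 27 members (10.5%) higher, against 27.0% of all tested genes, and called 89 members neither way. At a change of at least 2-fold as well, 85 members were lower, against 7.17% of all tested genes, and 9 were higher, against 7.34%. The median log2 fold change of C2S over PM_control was -0.58 over the members and 0.00 over all tested genes, and 196 members lay below 0. All 3 C2S values were below all 3 PM_control values in 151 members, against 31.4% of all tested genes, and above them in 32 members, against 29.8%. In bulk RNA, fewer cells that express a gene and less of its RNA per cell cannot be told apart.

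Many members are near the limit of detection, and 34 of them had a group mean under 1 CPM, 30 in C2S and 4 in PM_control. A member that met the rule through its higher group alone is more likely to show a difference. Among the 226 members with at least 1 CPM in both groups, a set chosen after the data were seen, 25 were called higher and 115 lower by edgeR, and the median log2 fold change was -0.49.

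Summed over the 152 KRAB members, levels scaled by edgeR's TMM factors were 896, 882 and 893 CPM in C2S libraries 1 to 3 and 1372, 1292 and 1338 CPM in PM_control libraries 1 to 3. The groups did not overlap, and the mean sum was 33.3% below that of PM_control. Over the 108 members with no KRAB box found, the sums were 4185, 4180 and 4155 CPM with C2S and 4752, 4542 and 4524 CPM in PM_control. These also did not overlap, and the mean sum was 9.4% below that of PM_control. A sum gives most weight to members of high level. In this set Zfp710 fell by a large amount, while Zfp703 and Zfp106 rose, with values given below. The lower sum therefore does not show a fall across the members with no KRAB box found.

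By KRAB status, 93 of the 149 tested KRAB members (62.4%) were called lower by edgeR and 8 higher, with a median log2 fold change of -0.88. Of the 108 members with no KRAB box found, 48 (44.4%) were called lower and 19 higher, with a median of -0.19. The difference between these sets was not tested. At least 1 CPM was reached by 120 to 124 of the 152 KRAB members in C2S libraries and 144 to 149 in PM_control. Of the 108 members with no KRAB box found, 105 to 106 reached it in C2S libraries and 108 in PM_control. Members that met the level rule through PM_control alone can therefore weigh more on the KRAB set. The set with at least 1 CPM in both groups was not split by KRAB status. In the 86 tested members whose box was found by both the profile and the residue pattern, 55 were lower and 6 higher, with a median of -0.97. The KRAB genes that carry other names and have a mean of at least 1 CPM are not members: 36 of the 52 tested (69.2%) were called lower and 7 higher, with a median of -1.12. Of 116 other genes with at least 3 fingers and no KRAB box found, 52 (44.8%) were lower and 31 higher, with a median of -0.16.

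**Figure D1:**
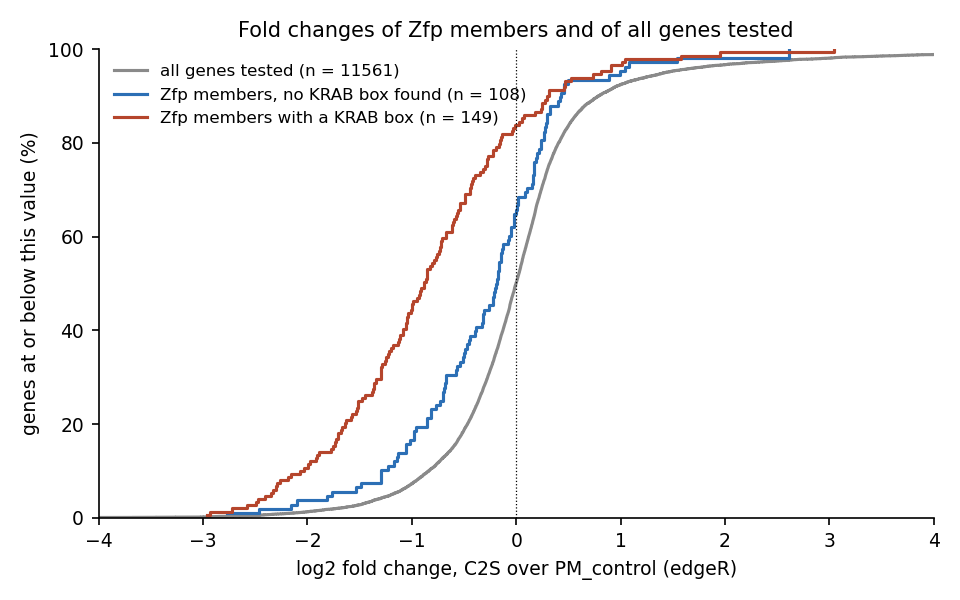
Cumulative share of genes (vertical axis, percent) at or below each log2 fold change of C2S over PM_control (horizontal axis) for all 11561 genes tested, 149 Zfp members with a KRAB box and 108 with none found. The KRAB curve lies farthest left with its median at -0.88, the curve for members with no KRAB box found has its median at -0.19, and the curve for all genes has its median at 0.00.

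KRAB status went with other properties of the members. The median level was 3.94 CPM in KRAB members and 22.9 CPM in members with no KRAB box found, over all 6 libraries. Median transcript GC content was 43.5% and 51.9%, and the median number of fingers in the longest protein was 12 and 7. The share called lower by edgeR was largest at low levels: 63 of 98 tested members at 1 to 5 CPM (64.3%), 46 of 83 at 5 to 20 CPM (55.4%) and 32 of 76 at 20 CPM or more (42.1%). In the other nuclear protein-coding genes the shares were 16.7%, 32.5% and 29.8% at these levels. By KRAB status, the shares called lower were 66.3% of 83 KRAB members and 53.3% of 15 with no box found at 1 to 5 CPM. They were nearly equal at 5 to 20 CPM, 55.8% of 52 and 54.8% of 31, and were 64.3% of 14 and 37.1% of 62 at 20 CPM or more. Members at 1 to 5 CPM stood farthest from the other coding genes of their level, and that gap was not tested.

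GC content moved with the calls in the members and in the other coding genes. The other coding genes were split into 5 classes of equal size by transcript GC content, and members were placed in these classes. In the lowest class (up to 44.7%), edgeR called 69.6% of members lower, against 43.7% of other coding genes. The shares were 59.1% and 31.2% in the second class, 47.1% and 25.4% in the third, 19.2% and 21.6% in the fourth, and 39.0% and 22.1% in the highest. KRAB members were more often lower than members with no box found in the lowest class (71.3% of 87 against 64% of 25), the second (66.7% of 30 against 42.9% of 14) and the fourth (27.3% of 11 against 13.3% of 15). The order was the other way in the third class (41.2% of 17 against 52.9% of 17) and the highest (25% of 4 against 40.5% of 37). Across the 257 tested members, the fold change rose with the level (Spearman's rho 0.41) and with GC content (0.41). Among KRAB members rho was 0.31 for level and 0.42 for GC content, and among members with no KRAB box found it was 0.24 and 0.18. All are descriptions over genes measured in the same libraries. With the trend over GC removed from each library, 130 members were lower and 31 higher (27.9% and 25.4% of all tested genes). Of the 141 lower members, 118 were called lower again, and the median was -0.48. Members with more fingers were more often lower, from 9 of 25 with 0 to 2 fingers to 33 of 52 with 15 or more. By exon number the members with 1 or 2 exons (11 of 22 lower) were close to other coding genes of that kind (50.7%), while those with 3 to 5 exons stood at 56.1% against 34.2%. The part that level, GC content and gene structure play in the difference between members and other genes was not tested beyond these values.

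**Figure D2:**
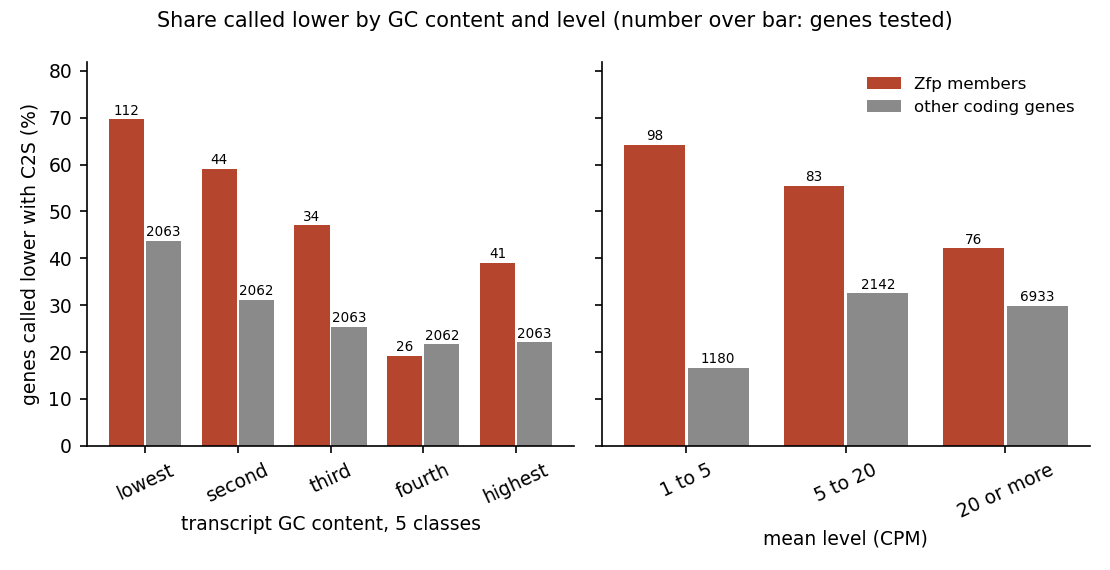
Bars give the percent of tested genes that edgeR called lower with C2S, for Zfp members and other coding genes, by 5 classes of transcript GC content (left) and by mean level in CPM (right), with the number of genes over each bar. Members reach 69.6% in the lowest GC class and 19.2% in the fourth, and 64.3% at 1 to 5 CPM against 42.1% at 20 CPM or more.

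**Figure D3:**
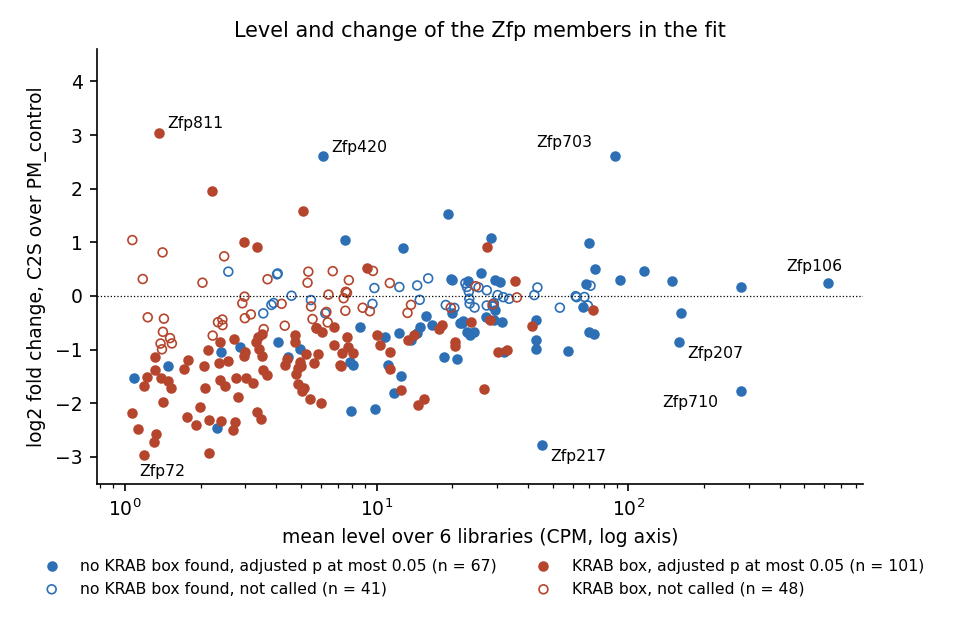
Each point is 1 of the 257 tested members, with its mean level in CPM (horizontal log axis) and its log2 fold change of C2S over PM_control (vertical axis); filled points passed an adjusted p of 0.05 by edgeR and colours give KRAB status. Most filled points lie below 0, and Zfp811, Zfp420 and Zfp703 stand highest.

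The genes named for large changes, here and below, were taken only from called members whose groups did not overlap. The largest rises were in 3 genes at very different levels. Zfp703, a transcriptional corepressor of the Nlz family, gave 155.7, 155.7 and 155.9 CPM with C2S and 26.3, 27.2 and 22.7 CPM in PM_control. All C2S libraries were far above all controls, and its log2 fold change was 2.61 with an SE of 0.08 (edgeR adjusted p = 7.8e-14). Its exons overlap those of Gm45371 over 13.5% of their length, so some of its reads are uncertain. Zfp420 (chr7:29859979-29877292), with 19 fingers, gave 10.2, 9.50 and 12.7 CPM with C2S and 1.38, 1.82 and 2.10 CPM in PM_control. The groups did not overlap, and the log2 fold change was 2.61 with an SE of 0.24 (edgeR adjusted p = 9.3e-08). Zfp811 gave 3.34, 2.28 and 1.92 CPM with C2S, against 0.459, 0.404 and 0 CPM. These rest on few counts, and its log2 fold change of 3.05 had an SE of 0.57 (edgeR adjusted p = 0.000221).

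Other members that rose kept to smaller changes. Zfp503, the second Nlz gene, was at 10.1 ± 2.11 CPM (SD, n = 3) with C2S and 4.98 ± 1.39 CPM in PM_control, and its log2 fold change was 1.04 with an SE of 0.23 (edgeR adjusted p = 0.000918). Zfp516, known as an activator of brown fat genes, gave 32.7, 25.2 and 28.9 CPM against 8.81, 10.2 and 11 CPM. Its groups did not overlap, and its log2 fold change was 1.54 with an SE of 0.14 (edgeR adjusted p = 7.5e-08). Zfp346, a binder of double-stranded RNA, gave 84.8, 100.2 and 97.4 CPM against 43.6, 48.8 and 49.0 CPM, a log2 fold change of 1.00 with an SE of 0.09 (edgeR adjusted p = 4.5e-08). Zfp367 rose by 1.08 ± 0.10 (SE) on the log2 scale, with 10.9% of its exons shared with Gm47513. The KRAB gene Zfp959, whose box is printed above, gave 10.3, 5.89 and 7.02 CPM against 2.75, 1.62 and 3.46 CPM, a log2 fold change of 1.58 with an SE of 0.29 (edgeR adjusted p = 0.000196). The KRAB gene Zfp963 stood at a log2 fold change of 1.95, but it overlaps Gm20422 over 40.8% of its exons and holds shared reads, so its value is uncertain.

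Among well-expressed members the largest fall was in Zfp217, a transcriptional regulator that works with the CtBP and CoREST repressor complexes. It gave 12.8, 12.4 and 8.72 CPM with C2S and 82.5, 73.4 and 76.5 CPM in PM_control. Every C2S library was far below every control, and its log2 fold change was -2.77 with an SE of 0.12 (edgeR adjusted p = 4.6e-12). Zfp710 gave 125, 111 and 139 CPM against 459, 421 and 398 CPM, again without overlap, with a log2 fold change of -1.77 and an SE of 0.08 (edgeR adjusted p = 9.8e-12). The KRAB gene Zfp26 gave 12.1, 12.6 and 11.5 CPM against 39.1, 38 and 44.1 CPM. Its log2 fold change was -1.74 with an SE of 0.11 (edgeR adjusted p = 9.1e-10), and 14.2% of its exons overlap Gm26733. Zfp207, a protein of the mitotic spindle and of splicing, gave 113, 118 and 106 CPM against 206, 200 and 203 CPM. The groups were tight and apart, with a log2 fold change of -0.85 and an SE of 0.06 (edgeR adjusted p = 4.7e-09).

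For Zfp217, Zfp710 and Zfp420, described above, 1 finger of each is shown for its make-up, with capitals marking the codons of the cysteines and histidines that hold zinc.
Zfp217: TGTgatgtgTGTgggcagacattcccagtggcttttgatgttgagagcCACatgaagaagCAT
Zfp710: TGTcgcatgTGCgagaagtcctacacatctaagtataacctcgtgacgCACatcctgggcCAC
Zfp420: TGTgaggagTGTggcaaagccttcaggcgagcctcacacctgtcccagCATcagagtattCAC
Each is the 63 coding bases of a finger of the longest protein. The longest proteins hold 8 fingers in Zfp217, 11 in Zfp710 and 19 in Zfp420. No KRAB box was found in the GENCODE M21 proteins of these genes. For Zfp420 that status is in doubt, since isoforms outside that annotation were not searched.

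The other large falls were in genes of low level, most of them of the KRAB type. Zfp72, Zfp966, Zfp971, Zfp873 and Zfp3 had a C2S mean under 1 CPM. They met the level rule through PM_control alone, which makes a large fall more likely. Zfp72, a KRAB gene with 11 fingers, gave 0.295, 0.120 and 0.340 CPM with C2S and 2.20, 1.92 and 2.10 CPM in PM_control. Its log2 fold change was -2.96 with an SE of 0.51 (edgeR adjusted p = 0.000106). Its C2S values rest on 3, 1 and 3 counts. Zfp966 and Zfp971 hold counts that are not whole, a mark of reads shared with other genes, and are uncertain. They had log2 fold changes of -2.93 ± 0.50 and -2.49 ± 0.41 (SE). Without C2S replicate 1, the value of Zfp971 was -3.24. Zfp873, with 16 fingers, was at 0.315 ± 0.273 CPM with C2S and 2.24 ± 0.543 CPM in PM_control (SD, n = 3), a log2 fold change of -2.73 ± 0.57 (SE). Zfp334 was at -2.58 ± 0.49 and Zfp931 at -2.47 ± 0.65 on the same scale. Zfp931 depended on single libraries, with a log2 fold change of -1.83 without C2S replicate 1 and -3.97 without C2S replicate 3, and it stayed called by edgeR in both. Zfp3, with 13 fingers and no KRAB box found, gave 0.688, 0.601 and 0.793 CPM against 4.13, 4.15 and 3.36 CPM, a log2 fold change of -2.46 with an SE of 0.36 (edgeR adjusted p = 2.1e-05).

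**Figure D4:**
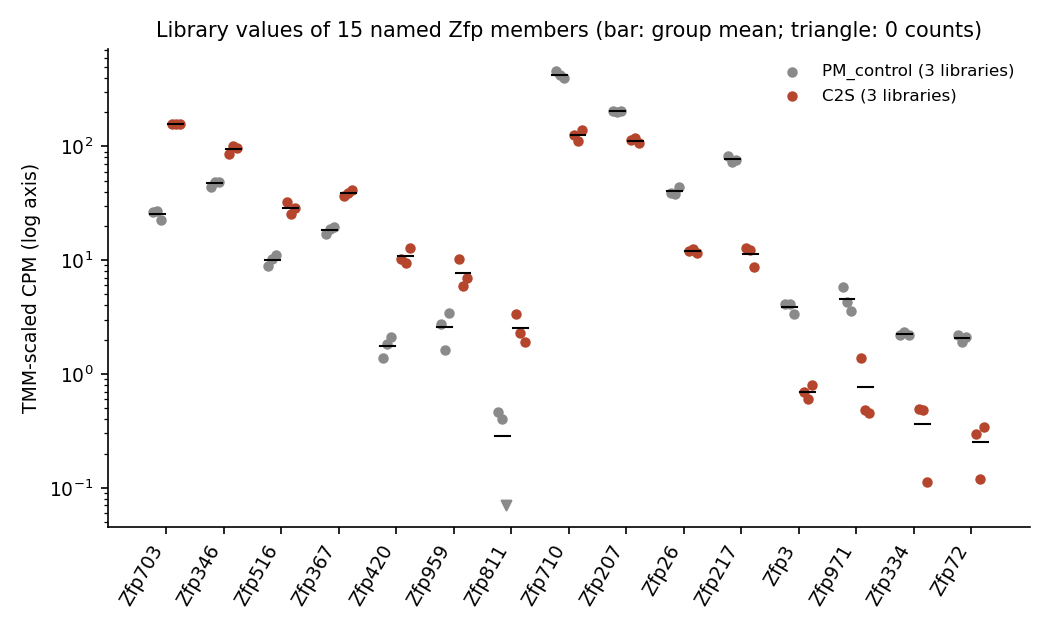
Levels in each of the 6 libraries for 15 named members (vertical log axis, TMM-scaled CPM), with bars at the group means and a triangle for a library with 0 counts. All 15 were named by a rule that took only called members whose groups did not overlap, so the gap between the points follows from that choice. Their C2S levels run from Zfp703 at 155.7 to 155.9 CPM down to Zfp72 at 0.120 to 0.340 CPM.

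Of the 8 members with the highest level per transcript length, 4 rose, 3 fell and 1 was not called. Of all tested genes, 27.0% were called higher and 28.4% lower, and of other coding genes at 20 CPM or more, 31.0% and 29.8%. On the TPM scale, which corrects for length, the highest mean over the 6 libraries was 149 for Zfp106, an RNA-binding protein of muscle and nerve, followed by 124 for Zfp207 and 111 for Zfp710. Zfp91, a ubiquitin ligase, stood at 78.5 TPM, Zfp414 at 61.3, Zfp706 at 57.1, Zfp384 at 56.5 and Zfp346 at 52.2. Zfp106 was at 673 ± 36.9 CPM (SD, n = 3) with C2S and 571 ± 37.3 CPM in PM_control, a log2 fold change of 0.24 with an SE of 0.07 (edgeR adjusted p = 0.00553). It overlaps Gm26899 over 26.1% of its exons, and with library sizes alone its call was lost (edgeR adjusted p = 0.0546). Zfp706 gave 148, 135 and 148 CPM against 178, 175 and 183 CPM, a log2 fold change of -0.32 with an SE of 0.06 (edgeR adjusted p = 0.000337). Zfp414 was not called (log2 fold change -0.05, edgeR adjusted p = 0.648), overlaps Gm20507 over 30.4% of its exons and holds shared reads.

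A list of 6 silencers of repeats and imprinted genes was looked at for the KRAB members with known targets. Of the 4 tested, 3 were called lower and 1 higher, where 28.4% and 27.0% of all tested genes were. Zfp809, which silences retroviruses through their primer binding site, gave 20.4, 18.6 and 19.7 CPM with C2S and 27.9, 23.9 and 31.0 CPM in PM_control. The groups did not overlap, and its log2 fold change was -0.49 with an SE of 0.12 (edgeR adjusted p = 0.00199). Zfp445, a guardian of imprinted methylation, was at -0.27 ± 0.08 (SE, edgeR adjusted p = 0.00867), and without PM_control replicate 3 its value of -0.21 missed the threshold (edgeR adjusted p = 0.0503). Zfp932, a repressor of endogenous retroviruses, was at -0.86 ± 0.25 (SE, edgeR adjusted p = 0.00866) with shared reads, and its call was lost with the GC trend removed, at -0.37 (edgeR adjusted p = 0.232). Zfp568, the repressor of a placental Igf2 transcript, stood at 0.28 ± 0.10 (SE, edgeR adjusted p = 0.0209). That call ended without C2S replicate 3 (0.22, edgeR adjusted p = 0.0992), without PM_control replicate 2 (0.23, edgeR adjusted p = 0.103) and without PM_control replicate 3 (0.26, edgeR adjusted p = 0.0632). Zfp57, the other imprint guardian, had 0 counts in every library, and Zfp708 was below the filter.

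A list of 19 Zfp regulators of transcription and chromatin held 17 tested genes, of which 9 were called lower and 3 higher, beside 28.4% and 27.0% of all tested genes. Zfp281, a binder of GC-rich promoters, gave 12, 11.3 and 10.9 CPM with C2S and 24.7, 22 and 28.8 CPM in PM_control. Its groups did not overlap, and its log2 fold change was -1.14 with an SE of 0.13 (edgeR adjusted p = 1.9e-06). Zfp687, a partner of Zfp592 in a chromatin reader complex, gave 27.6, 27.8 and 30.3 CPM against 56.3, 53.7 and 59.0 CPM, a log2 fold change of -0.98 with an SE of 0.09 (edgeR adjusted p = 6.4e-08). Zfp592 itself was not called, at 0.19 ± 0.09 (SE, edgeR adjusted p = 0.0907), though without C2S replicate 1 it passed at 0.27 (edgeR adjusted p = 0.025). Zfp148 was at -0.81, Zfp652 at -0.70, Zfp462 at -0.70, Zfp143 at -0.69 and Zfp827 at -0.68 on the log2 scale, all called lower by edgeR. For Zfp652 18.9% of the exons overlap Abi3. Zfp608 was called at -0.86 ± 0.28 (SE, edgeR adjusted p = 0.0159), and lost the call without C2S replicate 1 (-0.69, edgeR adjusted p = 0.0719) and without PM_control replicate 1 (-0.63, edgeR adjusted p = 0.11). Its paralog Zfp609 went the other way, with 160, 162 and 169 CPM against 144, 129 and 133 CPM, a log2 fold change of 0.27 with an SE of 0.06 (edgeR adjusted p = 0.00138). Zfp384, a regulator in bone cells, was at 0.29 ± 0.07 (SE, edgeR adjusted p = 0.003), and missed the threshold with the GC trend removed (0.17, edgeR adjusted p = 0.0524). Zfp703 was the third that rose. Zfp219, Zfp263, Zfp335 and Zfp410 were not called, though without C2S replicate 1 Zfp263 passed at -0.39 (edgeR adjusted p = 0.0123), and Zfp423 and Zfp521 had 0 counts. Of the exons of Zfp335, 23.3% overlap Pcif1.

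Not all Zfp proteins work on DNA, and a list of 12 that act on RNA, ribosomes, the spindle or ubiquitin had 4 members called higher and 5 lower. Over all tested genes these shares were 27.0% and 28.4%. Zfp598, which marks collided ribosomes with ubiquitin, gave 85.4, 77.2 and 96.8 CPM with C2S and 60.8, 60 and 62.7 CPM in PM_control. Its groups did not overlap, and its log2 fold change was 0.50 with an SE of 0.09 (edgeR adjusted p = 9.5e-05). Zfp346 and Zfp106, described above, also rose. Zfp91 was called at 0.17 ± 0.06 (SE, edgeR adjusted p = 0.0187), and the adjusted p was 0.0809 without C2S replicate 2, 0.0511 without PM_control replicate 1 and 0.058 without PM_control replicate 2, by edgeR. Zfp638, an RNA-binding protein that also takes part in silencing unintegrated retroviral DNA, gave 35.8, 37.8 and 39.6 CPM against 72.4, 78.0 and 78.7 CPM, a log2 fold change of -1.02 with an SE of 0.08 (edgeR adjusted p = 1.9e-08). Zfp830, a splicing-associated protein, was at -0.81 ± 0.15 (SE, edgeR adjusted p = 0.000263). Zfp593, a ribosome assembly factor, was at -0.31 (edgeR adjusted p = 0.0387), but 77.9% of its exons overlap E130218I03Rik. Without C2S replicate 2, C2S replicate 3, PM_control replicate 2 or PM_control replicate 3 its log2 fold change was -0.27, -0.27, -0.29 and -0.28, and its adjusted p by edgeR was 0.0928, 0.114, 0.0973 and 0.104. Zfp207 and Zfp706 fell, and Zfp326, Zfp330 and Zfp622 were not called.

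The members lie in clusters on the chromosomes, taken as runs of at least 3 Zfp genes in which each starts at most 500 kb from the next. There were 156 members in 31 clusters, of which 87 of the 153 tested were called lower by edgeR (56.9%) and 8 higher (5.23%), with a median log2 fold change of -0.72. Of the 104 members outside clusters, 54 were lower (51.9%) and 19 higher (18.3%), with a median of -0.43. Members in clusters had a median level of 5.53 CPM and a median GC content of 44.7%, against 18.4 CPM and 47.2% outside. The comparison was not split by KRAB status. Over all tested genes 28.4% were lower and 27.0% higher. In the cluster from Zfp551 to Zfp446 (chr7:12415153-12985714) all 6 tested members were lower, from Zfp606 at -2.33 to Zfp110 at -0.44 on the log2 scale, with a median of -1.53. The 3 members of the cluster from Zfp433 to Zfp938 (chr10:81704825-82241280) were all lower, with a median of -1.71, and 1 of them, Zfp433, holds shared reads. The cluster from Zfp160 to Zfp13 (chr17:21008903-23599487) had 10 of 13 lower and none higher, with Zfp52 at -2.30, Zfp994 at -2.26 and Zfp160 at -2.15. Its 1 tested member with no KRAB box found, Zfp213, stood at 0.42 and was not called (edgeR adjusted p = 0.203), and 46.5% of its exons overlap Gm26695. On chromosome 13, the cluster from Zfp712 to Zfp273 (chr13:67038596-67827002) had 7 of 11 lower and none higher, with Zfp953, which holds shared reads, at -2.41 and Zfp759 at -2.18.

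Neighbours did not always move alike. In the cluster from Zfp871 to Zfp414 (chr17:32765496-33631779), 7 of 10 tested members were lower, among them Zfp763 at -2.30 and Zfp870 at -1.89, while Zfp811 was higher at 3.05. In the cluster from Zfp84 to Zfp146 (chr7:29768552-30169750), 3 of 14 tested members were lower and 2 higher, with Zfp74 at -1.34 and Zfp420 at 2.61, and the median was -0.30. The cluster from Zfp553 to Zfp646 on chromosome 7 had 2 lower (Zfp553 at -1.29 and Zfp768 at -0.38) and 2 higher (Zfp646 at 0.46 and Zfp771 at 0.43) of 10. In the cluster from Zfp628 to Zfp580, whose 6 members have no KRAB box found, 2 were lower and the median was -0.19. Differences between clusters were not tested.

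**Figure D5:**
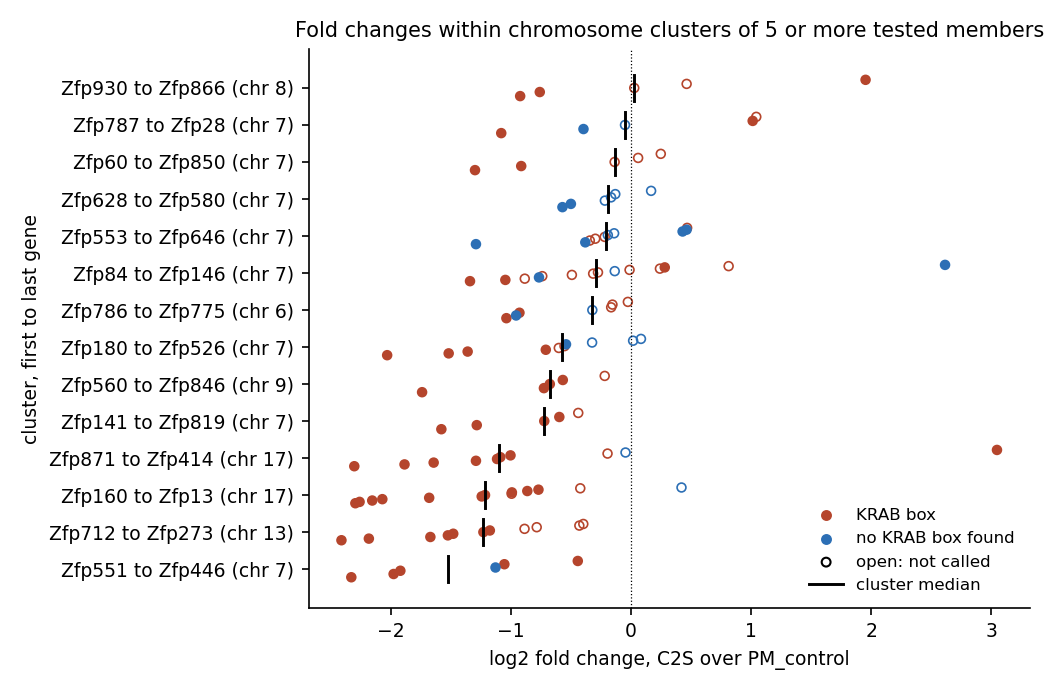
Each row is a chromosome cluster with at least 5 tested members, named by its first and last gene, and each point is a member's log2 fold change of C2S over PM_control (horizontal axis), coloured by KRAB status and open where not called, with a bar at the cluster median. Medians run from -1.53 in the cluster from Zfp551 to Zfp446 to 0.03 in that from Zfp930 to Zfp866, and single genes such as Zfp811 at 3.05 and Zfp420 at 2.61 lie far from their neighbours.

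Promoter sequences, from 250 bases before to 50 bases after each RefSeq gene start (GRCm38.p6), were available for 220 members in 268 windows. Windows of the same gene can overlap and were counted separately. Each motif was searched on both strands. The cyclic AMP response element TGACGTCA was in 4.48% of member windows, 3.21% of windows of all tested genes and 1.79% of all windows. The AP-1 site TGANTCA, which cannot be the same letters as that element, was in 4.10%, 4.79% and 7.81%, and the GC box GGGCGG in 47.4% of member windows and 63.0% of those of tested genes. The E-box CACGTG was in 5.97% of member windows and 10.2% of those of tested genes. The median number of CpG in a window was 21 for members called higher, 13 for those called lower and 18 for those not called. It was 12 for KRAB members, 22 for members with no KRAB box found and 21 for all tested genes. The letters ACTACANNT, the core of the sequence that Zfp143 binds, were added to the search after the values were seen. They were in 16.8% of member windows, 22.4% of those of KRAB members and 8.93% of those of members with no KRAB box found, against 5.89% for tested genes and 4.16% for all windows. They were about as frequent in windows of members called lower (17.7%) as in those of members not called (18.1%), and in 2 of 31 windows (6.45%) of members called higher. A match is a run of letters and not a shown binding site.

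The windows around the element TGACGTCA are printed for every member called by edgeR that held one, with the element in capitals, on the strand of the gene and ending at the latest at the gene start. Zfp367 (chr13:64152445-64152504) rose by 1.08 on the log2 scale. Zfp266 (chr9:20521420-20521462, -0.57), Zfp595 (chr13:67332561-67332614, -1.53), Zfp72 (chr13:74390830-74390885, -2.96) and Zfp953 (chr13:67360591-67360650, -2.41) fell. All 5 are on the minus strand.
Zfp367: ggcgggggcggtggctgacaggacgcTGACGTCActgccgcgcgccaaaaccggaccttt
Zfp266: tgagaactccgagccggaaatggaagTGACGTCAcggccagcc
Zfp595: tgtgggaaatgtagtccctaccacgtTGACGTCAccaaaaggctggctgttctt
Zfp72: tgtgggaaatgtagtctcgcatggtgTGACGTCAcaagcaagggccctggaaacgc
Zfp953: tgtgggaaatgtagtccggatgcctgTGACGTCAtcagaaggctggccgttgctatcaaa
The windows of Zfp595, Zfp72 and Zfp953, KRAB genes of chromosome 13, open with the same 16 bases, tgtgggaaatgtagtc, which hold the core ACTACANNT on the other strand. The element lay 105 bases before the start in Zfp367, 17 in Zfp266, 28 in Zfp595, 30 in Zfp72 and 52 in Zfp953. The element stood before the gene that rose and before genes that fell. It was in 4 of 141 windows of members called lower (2.84%) and 1 of 31 of those called higher (3.23%). In windows of members not called, which are not printed, it was in 7 of 94 (7.45%). These include overlapping windows of 1 gene, Zfp473, each counted, so the higher share is not a count of separate genes.

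Genes for the proteins that KRAB boxes work through were called in both directions. Of a list of 20 partners and heterochromatin genes, edgeR called 11 lower and 4 higher (28.4% and 27.0% over all tested genes), with a median log2 fold change of -0.35. Trim28, the corepressor that binds the box, was at 813 ± 37.8 CPM with C2S and 644 ± 41.7 CPM in PM_control (SD, n = 3), a log2 fold change of 0.34 with an SE of 0.06 (edgeR adjusted p = 0.000302). Setdb1, the methyltransferase that Trim28 recruits, was at 95.4 ± 5.13 CPM against 143 ± 3.38 CPM, a log2 fold change of -0.58 with an SE of 0.06 (edgeR adjusted p = 9.1e-07). Atf7ip, its stabilising partner, was at -0.97, and Cbx5 and Cbx3, the heterochromatin proteins HP1 alpha and HP1 gamma, were at -0.98 and -0.48, all called lower. Cbx1, the third of these proteins, was not called at -0.20 (edgeR adjusted p = 0.144). Fam208a and Mphosph8, of the silencing complex HUSH, were at -1.17 and -0.87 and called lower. Of the exons of Fam208a 12.9% overlap Ccdc66, and of those of Mphosph8 10.7% overlap Gm16973. Pphln1, also of HUSH, was not called at -0.13 (edgeR adjusted p = 0.0809). Suv39h2 (-1.07), Smarcad1 (-0.51), Hdac2 (-0.38), Uhrf1 (-0.35) and Morc3 (-0.35) were also called lower. Chd3 (0.61), Morc2a (0.44) and Hdac1 (0.24) were called higher with Trim28. Chd4, Dnmt1 and Suv39h1 were also not called, with 14.6% of the exons of Suv39h1 overlapping Gm14820.

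The 6 libraries held 8594485 to 10665869 expected counts each, a level of 3 counts was 0.281 to 0.349 CPM before TMM scaling, and the common biological coefficient of variation was 7.52%. Of 8 macrophage markers, 5 were called higher and Cd14 lower by edgeR (27.0% and 28.4% over all tested genes), with summed levels of 8107 to 8342 CPM in C2S and 6907 to 7312 CPM in PM_control. Of these markers, Itgam overlaps Gm49368 over 68.7% of its exons and Csf1r overlaps Hmgxb3 over 15.1%, so their values are uncertain. Markers of fibroblasts, epithelium, T cells and pluripotent cells summed to at most 0.589 CPM in any library. B cell markers summed to 0.962 to 2.16 CPM with C2S and 0 to 0.303 CPM in PM_control, with 2 of the 3 markers at 0 in every library. Endothelial markers summed to 3.40 to 9.14 CPM with C2S and 0.551 to 0.735 CPM in PM_control, mostly from Pecam1, which macrophages can also express. Their part in the changes of the Zfp members was not tested.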

How the data were processed

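Total RNA of RAW264.7 cells was sequenced in 6 libraries, 3 per group, after Trizol extraction and an Illumina TruSeq kit, per the labels' protocols. The series design text and the submitters' processing notes name fastp, STAR, RSEM and mm10. Tool versions, the gene models and the strand setting are not given in the sources. A gene is called uncertain where another gene on either strand covers at least 10% of its exon length. The authors deposited expected counts, which are RSEM's estimated reads per gene, per the file headers. The deposited TPM values are scaled for length and depth, per the file headers, and were used to rank levels and in an alternative test. The deposited FPKM values were not used.

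Expected counts were rounded. The filter filterByExpr, with a minimum count of 10 and a minimum total of 15, kept 11561 genes. They were tested with the quasi-likelihood F test of edgeR 4.0.16 (limma 3.58.1, R 4.3.3) after TMM scaling, in a model of group alone, with Benjamini-Hochberg adjustment over all genes at a limit of 0.05. The SE is the log2 fold change over the square root of F. Levels used to choose members are plain CPM, and levels per library are TMM-scaled CPM. A count more than 0.005 from a whole number marked shared reads (23 members).

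Of 52636 gene identifiers, 52489 were found in GENCODE M21, which gave names, positions, exons and GC content. KRAB boxes were searched in 53096 proteins translated from its coding transcripts, where RefSeq proteins had been planned, with pyhmmer 0.12.3. The search began from the first 75 residues of Zfp809, took matches at an E-value of 0.0001 or better and stopped changing at round 7. A gene counted as KRAB if any isoform matched, so a missed isoform would be placed with those that have no box found. Fingers were counted by the spacing of cysteines and histidines in the longest protein.

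The members, the lists (silencers, regulators, proteins acting on RNA and other substrates, KRAB partners, cell type markers), the tests and the rule for named genes were chosen with earlier results of these data known. Named by rule were, among called members whose groups did not overlap, the 8 largest fitted changes and the 4 smallest adjusted p-values in each direction, and, whatever their p, the 8 highest mean TPM values and the members of the 3 Zfp lists. Genes named for a cluster, a sequence or a promoter motif were chosen after their values were seen. The tests were tried on simulated counts. Alternatives were other scalings, filters and tools (DESeq2 1.42.0, limma on TPM), a replicate block, other member limits, removal of the GC trend and leaving out each library.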

Additional observations from a re-analysis of the deposited data

How the results depend on the processing

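The median of the members stayed below 0 in every alternative run, from -0.66 with library sizes alone, where the median of all genes moved to -0.09, to -0.31 for the members at a mean of at least 5 CPM. The count of members called lower was 78 at that limit. These were 46 of 83 tested at 5 to 20 CPM and 32 of 76 at 20 CPM or more. The shares of other coding genes called lower at these levels were 32.5% and 29.8%. With limma on log2(TPM + 1), 102 of 232 tested members were lower. The count called higher was 12 with limma on log2(TPM + 1) and 12 with limma on log2(TPM + 0.1), where the median of all genes was -0.09 and -0.10. With library sizes alone, 18 members were higher and 153 lower (21.4% and 34.6% of all genes). Leaving out 1 library gave 22 to 27 members higher and 124 to 138 lower. Of all genes, these fits called 24.6% to 26.7% higher and 25.1% to 27.0% lower. DESeq2 called 25 members higher and 129 lower, all of which edgeR also called, and 26.3% and 25.5% of all genes. With no low-count filter, 23 members were higher and 145 lower (18.1% and 17.8% of all genes), and the median of all genes was 0.10. Without genes with shared reads, 29 members were higher and 133 lower (28.9% and 29.3% of all genes). Of the 20 partner genes, 11 to 16 were called across the alternatives that kept all 20 in the test. Over all genes, the alternative runs called 17.8% to 34.6% lower and 14.4% to 28.9% higher. No named gene changed sign past the threshold. The labels do not say whether the replicate numbers pair the libraries. Same-numbered libraries had deviations correlated at -0.01, 0.07 and 0.03, and the other pairs across groups ran from -0.11 to 0.08. With 3 libraries per group these values cannot settle whether libraries were paired. A fit with the replicate block called 29 members higher and 141 lower (27.6% and 28.5% of all genes). Depth limits the members near 1 CPM, where a library holds about 10 counts.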
